A study of Homo sapiens with 17 samples.

Results

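Wnt target genes were followed in YB5 cells over the time course of toyocamycin treatment. The 10 genes are AXIN2, NKD1, RNF43, ZNRF3, TCF7, SP5, LGR5, ASCL2, EPHB2 and EPHB3. This list of beta-catenin targets and intestinal stem cell genes was set by name, with earlier results of these data known. They are 10 of the 19141 genes counted, and each of them passed the filter on low counts in both fits used here, of 14491 and of 16521 genes. YB5 is a clone of the human colon cancer line SW48 that carries a silenced GFP gene behind a viral promoter. Cells received toyocamycin, an adenosine analog made by Streptomyces, at 250 nM, or the vehicle DMSO at a dose of 0 nM, and polyA RNA was sequenced. The labels name 8 DMSO libraries (2 at 2 h, 1 each at 10, 24 and 48 h, and 3 at 72 h) and 9 toyocamycin libraries (2 at 2 h, 2 at 10 h, 1 each at 24 and 48 h, and 3 at 72 h). The last time point is later in the text of the study than in the labels, and the labels' time is kept here. Replicate 2 of each arm at 2 h and at 10 h forms batch 2, and the other 13 libraries form batch 1. The labels speak of biological triplicates without saying that replicates were separate cultures, so p-values measure the spread between these libraries of a single clone, which may be technical.

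In the canonical Wnt pathway, a ligand at the cell surface stops the complex of APC, AXIN and glycogen synthase kinase from marking beta-catenin for breakdown. Beta-catenin then enters the nucleus, binds TCF and LEF proteins on DNA and switches on target genes, several of which code for brakes on the pathway itself. The pathway maintains stem cells in the crypts of the colon, and colon cancers usually hold it on through mutations. SW48 is known to carry a mutation in CTNNB1, the beta-catenin gene, that stabilizes the protein.

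Positions are those of the GRCh38 gene models. The feedback genes are AXIN2 (ENSG00000168646, chr17:65528563-65561648, minus strand), NKD1 (ENSG00000140807, chr16:50548396-50649249, plus strand), RNF43 (ENSG00000108375, chr17:58353676-58417595, minus strand) and ZNRF3 (ENSG00000183579, chr22:28883572-29057488, plus strand). The transcription factor genes are TCF7 (ENSG00000081059, chr5:134114681-134151865, plus strand), SP5 (ENSG00000204335, chr2:170715337-170718078, plus strand) and ASCL2 (ENSG00000183734, chr11:2268498-2270588, minus strand). The receptor genes are LGR5 (ENSG00000139292, chr12:71439798-71586310, plus strand), EPHB2 (ENSG00000133216, chr1:22710839-22921500, plus strand) and EPHB3 (ENSG00000182580, chr3:184561785-184582408, plus strand). Counted genes on the other strand overlap LGR5 (TSPAN8) and TCF7 (SKP1), and unnamed genes on the same strand overlap AXIN2 (ENSG00000266076) and RNF43 (ENSG00000285897). The strand setting of the counting is not given in the sources used here, so reads of such neighbours may be shared or lost at these 4 genes. Genes outside the counts also overlap EPHB2, ZNRF3, NKD1 and SP5 in the gene models, where reads may likewise be lost.

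The promoter sequences of SP5, EPHB2 and EPHB3 are shown because these genes had the largest rise and the largest falls of the list. TCF and LEF proteins bind DNA at a short motif, which was searched on both strands as CTTTGAA or CTTTGAT or CTTTGTA or CTTTGTT in the 250 bases before each RefSeq start site (GRCh38.p14). RefSeq promoters were at hand for 5 of the 10 genes, and not for AXIN2, LGR5, ASCL2, ZNRF3 and NKD1. The windows below run 5′ to 3′ on the plus strand, with each motif match in capitals.
SP5 (chr2:170715087-170715336): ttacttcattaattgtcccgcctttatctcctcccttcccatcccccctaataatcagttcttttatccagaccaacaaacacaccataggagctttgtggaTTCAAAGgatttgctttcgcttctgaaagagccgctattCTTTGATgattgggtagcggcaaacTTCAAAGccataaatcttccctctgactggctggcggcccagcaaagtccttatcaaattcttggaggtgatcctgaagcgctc
EPHB2 (chr1:22710588-22710837): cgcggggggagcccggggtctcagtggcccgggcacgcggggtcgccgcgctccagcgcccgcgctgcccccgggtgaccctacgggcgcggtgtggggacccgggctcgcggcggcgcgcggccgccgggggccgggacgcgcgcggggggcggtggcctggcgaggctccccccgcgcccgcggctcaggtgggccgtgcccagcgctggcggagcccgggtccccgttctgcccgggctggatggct
EPHB3 (chr3:184561535-184561784): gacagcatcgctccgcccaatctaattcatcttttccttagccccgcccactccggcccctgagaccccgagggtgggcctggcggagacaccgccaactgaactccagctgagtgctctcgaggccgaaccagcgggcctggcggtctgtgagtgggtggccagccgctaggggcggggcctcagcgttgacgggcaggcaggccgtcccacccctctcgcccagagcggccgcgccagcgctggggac
The SP5 window held 3 matches, which begin 148, 109 and 84 bases before the start. The outer matches read CTTTGAA on the minus strand, and the middle match reads CTTTGAT on the plus strand. The EPHB2 and EPHB3 windows held 0 matches, as did both windows of RNF43 and the upstream window of TCF7, whereas the downstream window of TCF7 held 1 match (CTTTGTT, 50 bases before its start). Among all 35116 promoter windows of this length, 4199 (12%) held at least 1 match. A match is a run of letters and does not show that a protein binds there, and no match covers this window only. The EPHB2 window held 42 CG pairs and the SP5 window 6, against a median of 11 over all windows.

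Between 16179215 and 20756242 reads were counted on genes in the DMSO libraries and between 8735465 and 22121364 in the toyocamycin libraries. Replicate 2 of toyocamycin at 10 h stood apart. It had the lowest total and the highest share of mitochondrially encoded counts (6.55%, against 0.917% to 3.49% in the other libraries). Of the markers fixed for other cell types, the 5 blood genes summed to 47.1 CPM there (426 counts, of which HBB, a haemoglobin gene, had 379) and to at most 2.03 CPM elsewhere. Values without this library stand beside the 10 h counts of calls and the 10 h results of AXIN2, ZNRF3 and SP5. Ranges for the other genes called at 10 h are given at the end. Of the 9 colon epithelium markers, KRT8, KRT18, EPCAM, CDH1, CDX2, CDH17 and VIL1 were counted in every library, VIL1 with as few as 1 count. LGALS4 (0 to 61 counts) and KRT20, a marker of mature colonocytes (0 to 7 counts), were not. The 5 fibroblast markers summed to 0.464 to 11.3 CPM on DMSO and 0.785 to 19.6 CPM on toyocamycin. Of these, 4 of the 4 tested were called higher at 72 h, where the sums were 2.36, 19.6 and 2.78 CPM on toyocamycin, so that replicate 2 carried most of the signal. The 3 endothelium markers summed to at most 0.617 CPM on DMSO and, on toyocamycin, to 12.3 CPM in the library that stood apart and at most 3.56 CPM elsewhere, with 1 of the 2 tested called higher at 72 h. At 72 h, 3 of the 8 tested epithelium markers were called higher (CDX2, LGALS4 and CDH17) and 5 lower (KRT8, KRT18, CDH1, VIL1 and EPCAM). The sum of all 9 was 5808 to 6682 CPM on DMSO and 534 to 571 CPM on toyocamycin. Most of the DMSO sum was KRT8 (mean 4293 CPM, and 268 on toyocamycin) and KRT18 (1215 and 34.9). Beside these marker calls, 47.0% of all genes tested at 72 h were called higher and 41.9% lower. The part of these shifts in the results at 72 h was not tested. In bulk RNA, fewer cells expressing a gene and less RNA of it per cell cannot be told apart.

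Levels are given as CPM, the counts of a gene as a share of the TMM-scaled library total, with TMM factors of all 17 libraries. Because TMM centres the bulk of genes at no difference, a fold change here compares a gene with the rest of the transcriptome and says nothing of RNA per cell. Genes were called with the quasi-likelihood test of edgeR where the p adjusted after Benjamini and Hochberg over all genes tested was under 0.1. The study's methods use this cut too. The plot of levels by library gives every value of the 10 genes.

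**Figure D1:**
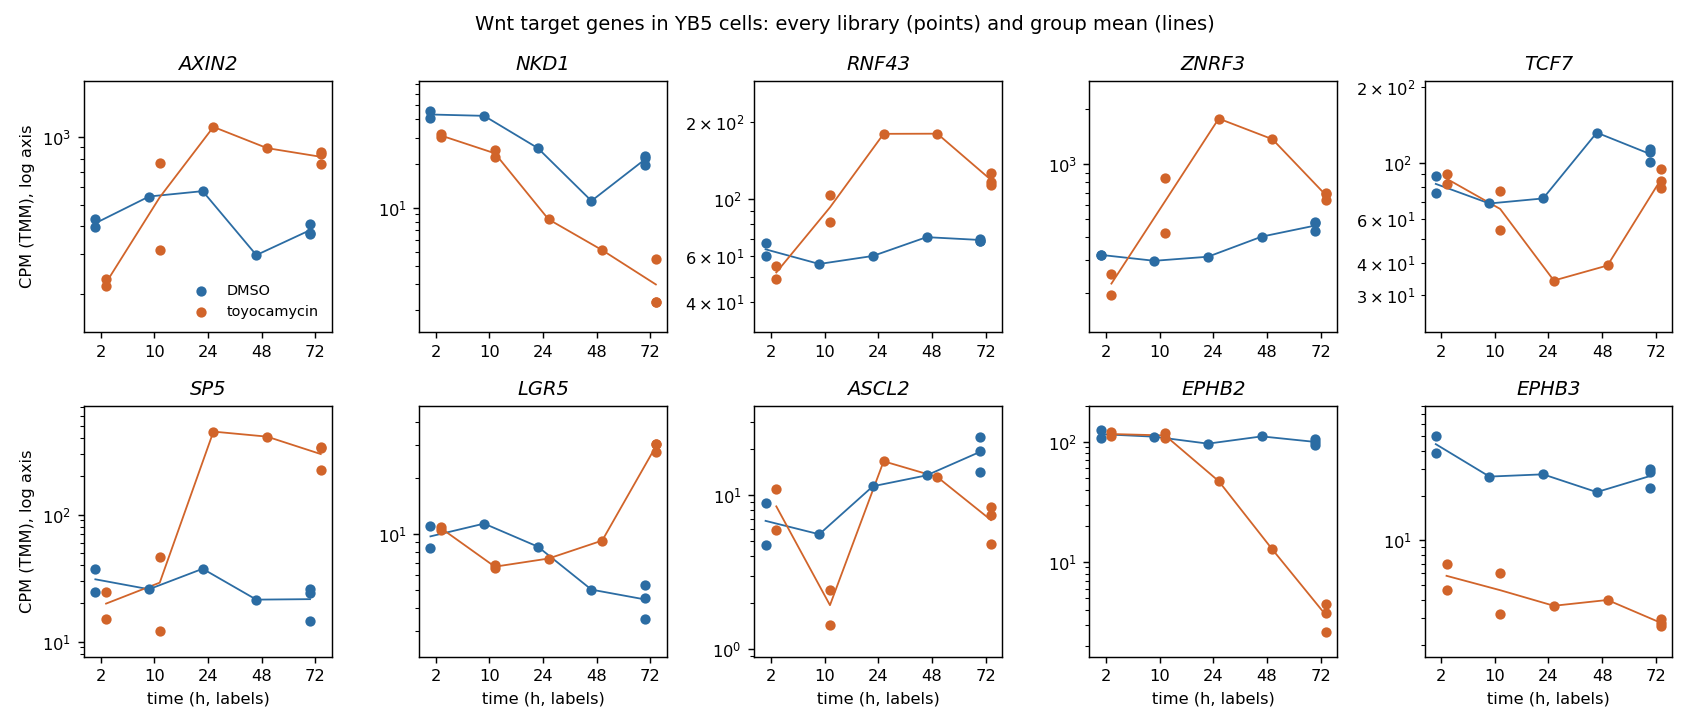
CPM after TMM scaling (log axis) of the 10 Wnt target genes against treatment time in hours as labelled, with DMSO in blue and toyocamycin in orange. Points are libraries and lines join group means. EPHB3 is low in every toyocamycin library from 2 h on, EPHB2 falls from 111 and 121 CPM at 2 h to at most 4.43 CPM at 72 h, and SP5 stands at 225 CPM or more from 24 h.

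On DMSO, and per kilobase of exon so that genes can be compared, AXIN2 had the highest level (median 77.5 CPM per kb over 8 libraries), followed by ZNRF3 (51.9). SP5 (12.2), RNF43 (10.8), TCF7 (9.40), EPHB2 (8.51), ASCL2 (8.36) and EPHB3 (6.22) came next, and NKD1 (1.39) and LGR5 (1.31) were lowest. The steadiest genes of the list on DMSO were RNF43, whose highest library was 1.27 times its lowest, and EPHB2 (1.34 times). ASCL2 (5.03 times) and NKD1 (4.12 times) varied most there, whereas on toyocamycin EPHB2 (46.7 times) and SP5 (37.1 times) did.

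After 2 h of toyocamycin, the genes that changed were lower. AXIN2, ZNRF3 and EPHB3 fell, which is 3 of 10 genes where 8.42% of all genes tested were called lower. Only EPHB3 stayed called with all 17 libraries in the fit, or with mitochondrially encoded genes setting the scale. All genes called lower were then 812 and 87, beside 1220 in the main fit. No member was called higher (0 of 10, with 0 at an unadjusted p under 0.05 and 0 by DESeq2), where 0.518% of all genes were. The median log2 fold change of the 10 genes was -0.39, beside 0.02 over all genes tested.

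At 10 h, with 1 DMSO library against 2 toyocamycin libraries of unequal batch, 2 genes were called higher (RNF43 and ZNRF3) and 4 lower (LGR5, ASCL2, EPHB3 and NKD1). Among all genes, 20.4% were called higher and 24.4% lower. The lone DMSO library was taken to vary like the other groups. It is of batch 2, as is replicate 2 of toyocamycin. Results without that replicate therefore set batch 1 against batch 2, and its part cannot be told apart from batch. Median log2 fold changes were -0.04 for the 10 genes and 0.42 for all genes (-0.44 and 0.38 with batch as a term). Without replicate 2 of toyocamycin, the library that stood apart, the medians were 0.07 for the 10 genes and 0.00 for all genes. Without replicate 1, which leaves batch 2 alone, they were -0.78 and 0.30. Each of these runs has 1 library an arm, so no calls are counted.

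At 24 and 48 h each arm has 1 library, so there is no test and a log2 fold change beyond 1 in size was counted. At 24 h, RNF43, ZNRF3 and SP5 passed this size upward and EPHB2, EPHB3, NKD1 and TCF7 downward (29.7% and 27.8% of all genes). With mitochondrially encoded genes setting the scale, 1 member passed upward and 7 downward at 24 h and RNF43 turned to -0.69, while all genes went from 4299 upward and 4033 downward to 1302 and 10305 (2358 and 6993 with library size alone). At 48 h, AXIN2 joined the 3 genes that were higher, and the 4 lower genes were again EPHB2, EPHB3, NKD1 and TCF7 (38.1% and 29.9% of all genes). Members upward at 48 h were 2 with library size alone and 1 with the mitochondrially encoded genes, where AXIN2 (-0.24), RNF43 (-0.49) and ZNRF3 (-0.062) turned negative. Over all genes, 4444 and 2910 went upward in these scalings, beside 5515 with TMM. The medians of the 10 genes were 0.18 at 24 h and 0.45 at 48 h, beside 0.00 and 0.16 for all genes.

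At 72 h all 10 genes were called. In none did the libraries of the arms overlap, but the share of all genes without overlap was not counted. AXIN2, RNF43, ZNRF3, SP5 and LGR5 were higher and NKD1, TCF7, ASCL2, EPHB2 and EPHB3 were lower. At this time 47.0% of all genes tested were called higher and 41.9% lower, so 10 calls of 10 lie near what the whole table shows. The median log2 fold change was 0.14 for the 10 genes and 0.18 for all genes. Calls of RNF43, ZNRF3, TCF7 and AXIN2 at 72 h depend on the scaling, as given below for each.

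**Figure D2:**
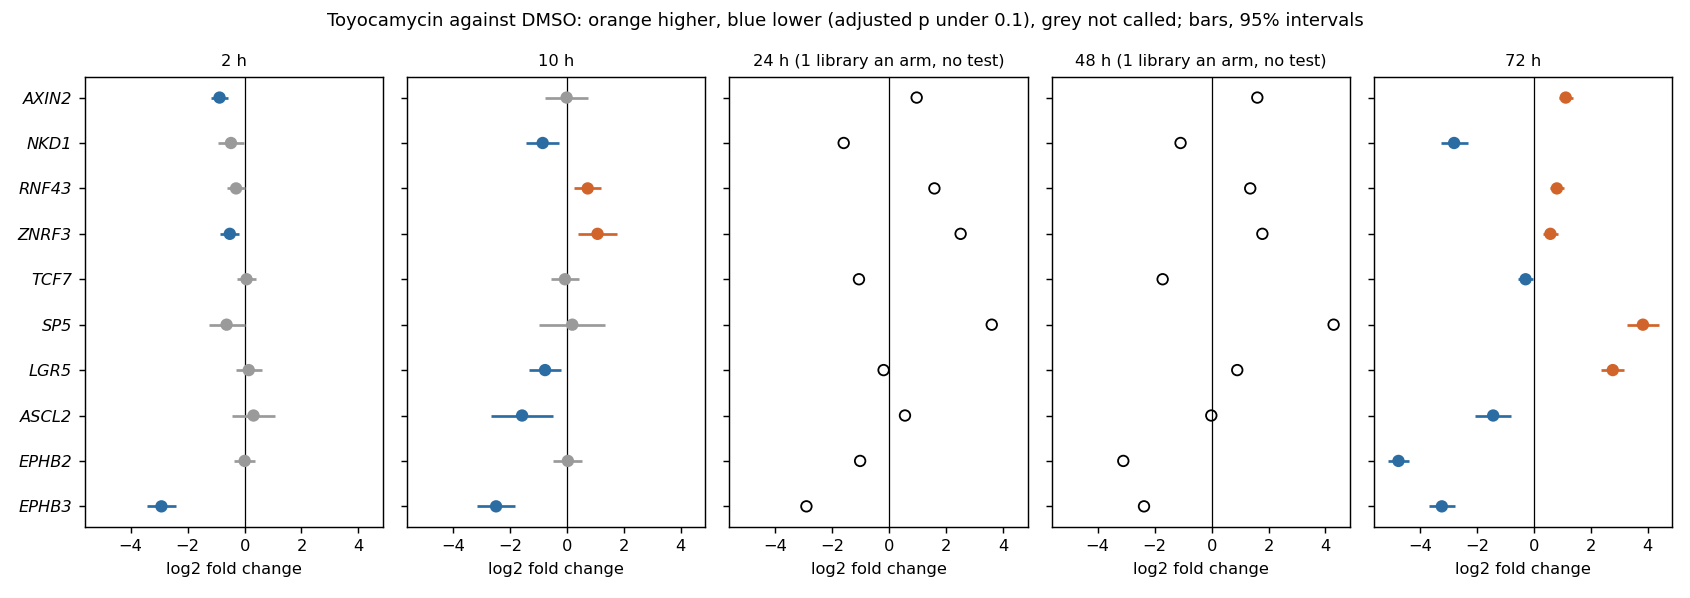
Log2 fold change of toyocamycin against DMSO (horizontal axis) for each of the 10 genes at the 5 time points. Filled points are called higher (orange), lower (blue) or not called (grey) at an adjusted p under 0.1, bars are 95% intervals, and open points have 1 library an arm and no test. EPHB3 lies left of 0 at all 5 times, while AXIN2 and ZNRF3 lie left of 0 at 2 h and right of it at 72 h.

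AXIN2 codes for a scaffold of the complex that breaks down beta-catenin and is the most widely used readout of the pathway. On DMSO it stood at 429.9 and 397 CPM after 2 h, 543 after 10 h, 574 after 24 h, 298 after 48 h, and 408, 372 and 375 after 72 h. On toyocamycin it stood at 233 and 217 CPM after 2 h, 765 and 313 after 10 h, 1109 after 24 h, 892 after 48 h, and 853, 760.0 and 836 after 72 h. The toyocamycin libraries were thus below every DMSO library at 2 h and above every one at 24, 48 and 72 h, while at 10 h they lay on either side of the DMSO library. At 2 h AXIN2 was 1.84-fold lower, from 413 ± 23.5 to 225 ± 11.3 CPM (SD, n = 2 each; log2 fold change -0.88 ± 0.14 SE, adjusted p = 0.00119). With all 17 libraries in the fit the adjusted p was 0.133 at the same fold change. At 72 h it was 2.17-fold higher, from 385 ± 20.4 to 816 ± 49.5 CPM (n = 3 each; log2 1.12 ± 0.12 SE, adjusted p = 2.98e-07). Scaled on mitochondrially encoded genes, the log2 value at 72 h was 0.04 and not called. At 10 h the value turned with the library left out. It was -0.01 with both toyocamycin libraries, -0.79 within batch 2 and 0.50 across batches, without the library that stood apart.

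ZNRF3 and RNF43 code for related ubiquitin ligases that take Frizzled receptors off the cell surface and so brake the pathway. ZNRF3 stood at 322 and 320.1 CPM on DMSO at 2 h and at 253 and 195 CPM on toyocamycin. It was 1.43-fold lower there (log2 -0.52 ± 0.16 SE, adjusted p = 0.0639). This is the weakest of the 3 calls, lost without any of 3 of the 4 libraries: replicate 1 of DMSO (adjusted p = 0.137), replicate 2 of DMSO (0.155) or replicate 2 of toyocamycin (0.432). On DMSO ZNRF3 then stood at 298 CPM after 10 h, 314 after 24 h, 403 after 48 h, and 483, 476 and 431 after 72 h. Under toyocamycin it stood at 836 and 421 CPM after 10 h, 1768 after 24 h, 1366 after 48 h, and 642, 689 and 698 after 72 h. Every toyocamycin library from 10 h on was above the DMSO libraries of its time, with the widest gap, 5.69-fold, at 24 h. The log2 fold change was 1.08 at 10 h (adjusted p = 0.0171) and 0.58 at 72 h (adjusted p = 6.09e-04), where library size alone turned it to -0.023 and the mitochondrially encoded genes to -0.52, neither called. At 10 h the value was 0.50 within batch 2. It was 1.49 without the library that stood apart, where batch 1 is set against batch 2.

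RNF43 ran a similar course at a lower level. The DMSO libraries held 67.5 and 60.3 CPM after 2 h, 56.1 after 10 h, 60.3 after 24 h, 71.3 after 48 h, and 69.1, 70.4 and 69.0 after 72 h. The toyocamycin libraries held 48.8 and 55.1 CPM after 2 h, 104 and 81.8 after 10 h, 179 after 24 h, 179 after 48 h, and 126, 113 and 117 after 72 h. The arms did not overlap at any time, with toyocamycin below DMSO at 2 h and above it from 10 h. The difference at 2 h was not called (log2 -0.30 ± 0.14 SE, adjusted p = 0.338). RNF43 rose at 10 h (log2 0.73 ± 0.22 SE, adjusted p = 0.0176) and at 72 h (log2 0.81 ± 0.12 SE, adjusted p = 8.90e-06), in both cases not called with library size alone (0.26 and 0.21). Within a library no scaling enters the ratio of 2 genes' counts, and that of RNF43 to ZNRF3 was 0.143 to 0.21 on DMSO and 0.101 to 0.282 on toyocamycin. Over the 17 libraries the log2 CPM of RNF43 and ZNRF3 had a Pearson r of 0.95, the highest of the 45 pairs in the list, as a description of libraries that share treatment and time.

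NKD1, which codes for an inhibitor of Dishevelled, was below DMSO at 2 h like these 3 brakes and, unlike them, stayed below it at every later time. With DMSO its level was 40.8 and 45.7 CPM after 2 h, 42.3 after 10 h, 25.5 after 24 h, 11.1 after 48 h, and 19.7, 22.6 and 21.9 after 72 h. With toyocamycin its level was 31.6 and 30.4 CPM after 2 h, 22.1 and 24.9 after 10 h, 8.32 after 24 h, 5.13 after 48 h, and 2.26, 4.45 and 2.26 after 72 h. Every toyocamycin library lay below all DMSO libraries of its time, and the level fell on toyocamycin from each time point to the next. The difference at 2 h was not called (log2 -0.48 ± 0.22 SE, adjusted p = 0.299). NKD1 was lower at 10 h (log2 -0.85 ± 0.27 SE, adjusted p = 0.0209) and 6.99-fold lower at 72 h (log2 -2.81 ± 0.22 SE, adjusted p = 8.47e-09). The count ratio of NKD1 to AXIN2 was 0.0373 to 0.115 in the DMSO libraries and 0.00265 to 0.00751 in the toyocamycin libraries of 24 to 72 h.

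SP5, a zinc finger transcription factor that Wnt signals induce directly, had the largest rise of the list. In the vehicle arm it stood at 37.2 and 24.7 CPM after 2 h, 25.9 after 10 h, 37.5 after 24 h, 21.4 after 48 h, and 26.1, 24.1 and 14.6 after 72 h. In the treated arm it stood at 24.7 and 15.2 CPM after 2 h, 46.1 and 12.2 after 10 h, 451 after 24 h, 411 after 48 h, and 225, 339 and 336 after 72 h. At 2 h the arms overlapped narrowly and at 10 h the toyocamycin libraries lay on either side of the DMSO library, whereas the libraries of 24 h and later were far above every DMSO library. At 72 h SP5 was 14.2-fold higher, from 21.6 ± 6.15 to 299.8 ± 64.7 CPM (n = 3 each; log2 3.83 ± 0.26 SE, adjusted p = 1.71e-09). The log2 value at 2 h was -0.63 ± 0.30 SE (adjusted p = 0.335), and with replicate number as a block, which at 2 h is the batch, it was -0.64 and called (adjusted p = 0.0941). At 10 h the value was 0.19 and not called. It was -1.09 within batch 2 and 0.84 across batches, without the library that stood apart. Counts of SP5 per count of AXIN2 were 0.0389 to 0.0866 on DMSO and 0.264 to 0.461 on toyocamycin from 24 h, so that SP5 outran AXIN2 whatever the scaling.

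TCF7 codes for TCF1, a DNA-binding partner of beta-catenin. On DMSO it stood at 88.9 and 75.9 CPM after 2 h, 69.0 after 10 h, 72.2 after 24 h, 131 after 48 h, and 114, 109.7 and 101 after 72 h. On toyocamycin it stood at 90.6 and 82.3 CPM after 2 h, 77.0 and 54.3 after 10 h, 34.2 after 24 h, 39.2 after 48 h, and 79.1, 84.7 and 94.7 after 72 h. The arms overlapped at 2 and 10 h and parted at 24 and 48 h, and at 72 h the gap was narrow. TCF7 was 1.23-fold lower at 72 h (log2 -0.29 ± 0.12 SE, adjusted p = 0.0371). This call was lost without replicate 1 of DMSO (adjusted p = 0.115) or replicate 1 of toyocamycin (0.140), and with DESeq2's size factors the value was 0.027.

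ASCL2, a transcription factor that sets the fate of intestinal stem cells, varied most of the list on DMSO. The DMSO libraries held 8.88 and 4.73 CPM after 2 h, 5.57 after 10 h, 11.4 after 24 h, 13.4 after 48 h, and 19.4, 23.8 and 14.2 after 72 h. The toyocamycin libraries held 10.9 and 5.96 CPM after 2 h, 1.43 and 2.43 after 10 h, 16.6 after 24 h, 13.1 after 48 h, and 4.82, 7.41 and 8.43 after 72 h. Toyocamycin was below DMSO at 10 and 72 h and above it at 24 h, while the arms overlapped at 2 h and were close at 48 h. ASCL2 was 2.98-fold lower at 10 h (log2 -1.58 ± 0.51 SE, adjusted p = 0.0231) and 2.7-fold lower at 72 h (log2 -1.43 ± 0.29 SE, adjusted p = 3.11e-04). The 10 h libraries held only 20 and 22 counts of it on toyocamycin and 132 on DMSO.

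LGR5 codes for the R-spondin receptor that marks crypt base stem cells. With DMSO its level was 8.37 and 11 CPM after 2 h, 11.3 after 10 h, 8.53 after 24 h, 5.01 after 48 h, and 5.30, 3.48 and 4.51 after 72 h. With toyocamycin its level was 10.9 and 10.5 CPM after 2 h, 6.78 and 6.52 after 10 h, 7.36 after 24 h, 9.19 after 48 h, and 27.5, 30.6 and 30.6 after 72 h. The 72 h libraries on toyocamycin were the highest of the series, and the other libraries on the drug lay within the range of the DMSO libraries. LGR5 was lower at 10 h (log2 -0.77 ± 0.27 SE, adjusted p = 0.0346), a call that DESeq2's size factors lost (-0.56, adjusted p = 0.102). At 72 h it was 6.83-fold higher, from 4.43 ± 0.912 to 29.6 ± 1.77 CPM (n = 3 each; log2 2.77 ± 0.19 SE, adjusted p = 1.43e-09). So the stem cell genes LGR5 and ASCL2 both fell at 10 h and moved in opposite directions at 72 h.

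EPHB2 and EPHB3 code for receptor tyrosine kinases that position cells along the crypt, and they ended alike but fell at different times. EPHB3 stood on DMSO at 50.0 and 38.3 CPM after 2 h, 26.8 after 10 h, 27.7 after 24 h, 21.1 after 48 h, and 28.6, 30.1 and 22.4 after 72 h. In the treated arm it stood at 6.92 and 4.66 CPM after 2 h, 6.07 and 3.21 after 10 h, 3.65 after 24 h, 3.99 after 48 h, and 2.65, 2.78 and 2.95 after 72 h. The highest toyocamycin library of EPHB3 lay below the lowest DMSO library over the whole course. EPHB3 was 7.58-fold lower after 2 h (log2 -2.92 ± 0.23 SE, adjusted p = 6.19e-06), 5.62-fold lower after 10 h (log2 -2.49 ± 0.32 SE, adjusted p = 2.39e-05) and 9.43-fold lower after 72 h (log2 -3.24 ± 0.22 SE, adjusted p = 1.26e-09).

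EPHB2 stood on DMSO at 107 and 125 CPM after 2 h, 110.4 after 10 h, 96.6 after 24 h, 111 after 48 h, and 106, 99.9 and 93.4 after 72 h. On toyocamycin it stood at 111 and 121 CPM after 2 h, 107 and 119 after 10 h, 47.0 after 24 h, 12.7 after 48 h, and 3.73, 2.59 and 4.43 after 72 h. The arms overlapped at 2 and 10 h, and from 24 h every toyocamycin library was below every DMSO library. The log2 value at 2 h was 0.00 ± 0.17 SE (95% interval -0.36 to 0.36), and at 72 h EPHB2 was 27.1-fold lower, from 99.8 ± 6.35 to 3.59 ± 0.928 CPM (n = 3 each; log2 -4.76 ± 0.18 SE, adjusted p = 3.01e-12). EPHB3 counts per count of EPHB2 were 0.19 to 0.468 on DMSO, 0.0385 to 0.0622 on toyocamycin at 2 h and 0.667 to 1.07 on toyocamycin at 72 h. The balance between the receptors therefore tipped away from EPHB3 at 2 h and towards it at 72 h, and a ratio within a library is free of the scaling.

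The effects at 72 h and at 2 h were set against each other in 1 fit. Of the 10 genes, 8 had effects that differed between these times, 5 upward (AXIN2, LGR5, RNF43, ZNRF3 and SP5) and 3 downward (ASCL2, EPHB2 and NKD1), where 38.0% and 38.1% of all genes tested did. EPHB3 had no detectable difference (log2 -0.32, 95% interval -0.99 to 0.36, adjusted p = 0.387), though with library size alone it was -0.85 and called. TCF7 differed by -0.36 (adjusted p = 0.108), also called with library size alone (-0.90) and with batch as a term (-0.40, adjusted p = 0.0916).

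Some of the same genes also differed between early and late libraries without drug. Replicate 2 of DMSO at 2 h is of batch 2, while all 72 h libraries are of batch 1. Time in culture and batch are thus partly mixed here, and batch as a term was not run for this comparison. Between 2 and 72 h on DMSO, ASCL2 (log2 1.48), ZNRF3 (0.53) and TCF7 (0.39) rose and LGR5 (-1.13), NKD1 (-1.02) and EPHB3 (-0.71) fell, where 10.2% of all genes tested were called higher and 11.4% lower. With 1 library left out, values ranged from 0.50 to 0.58 for ZNRF3, 0.28 to 0.51 for TCF7 and -0.89 to -0.51 for EPHB3. The calls of these genes were not kept in every such run. Where mitochondrially encoded genes set the scale, 1 member was higher and 0 lower, beside 563 and 36 of all 14491 genes tested. LGR5 fell by 1.13 on DMSO and stood 2.77 above it on toyocamycin at 72 h. ASCL2 rose by 1.48 on DMSO and stood -1.43 from it on toyocamycin at 72 h, a level (6.89 ± 1.86 CPM, n = 3) close to that of DMSO at 2 h (6.80 ± 2.93 CPM, n = 2).

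How the libraries are scaled bears on the direction of some members at 72 h, since the median of all genes at that time was 0.18 with TMM, 0.50 with DESeq2's size factors, -0.42 with library size alone and -0.89 where the 13 mitochondrially encoded genes set the scale. Under all 4 scalings, and called in each, SP5 (2.68 to 4.15) and LGR5 (1.67 to 3.09) rose and EPHB2 (-5.83 to -4.44), EPHB3 (-4.35 to -2.92), NKD1 (-3.93 to -2.48) and ASCL2 (-2.56 to -1.11) fell. AXIN2 was higher in 3 of the 4, at 0.52 with library size alone and 0.04, not called, with the mitochondrial genes. RNF43 was not called with library size alone (0.21) or the mitochondrial genes, where it turned negative (-0.27), nor was ZNRF3, negative under both (-0.023 and -0.52). TCF7 was called lower in 3 of the 4, and was at 0.027 with DESeq2's size factors. Over all genes, the split at 72 h was 6804 higher and 6065 lower with TMM and 4204 higher and 7362 lower with the mitochondrial genes. At 10 h it was 3375 and 4033 with TMM, 4258 and 3370 with DESeq2's size factors, 1872 and 5676 with library size alone, and 503 and 5362 with the mitochondrial genes.

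**Figure D3:**
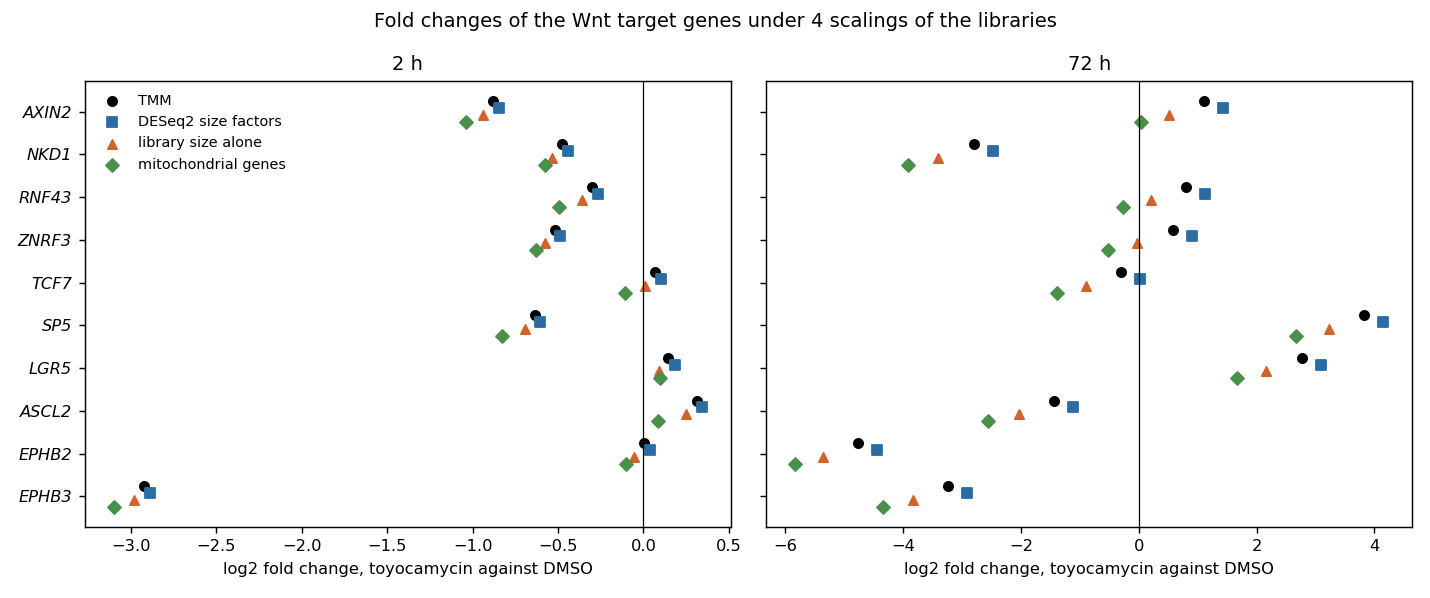
Log2 fold change of toyocamycin against DMSO (horizontal axis) of the 10 genes at 2 h and 72 h under 4 scalings of the libraries (circles TMM, squares DESeq2 size factors, triangles library size alone, diamonds mitochondrially encoded genes). At 2 h the scalings lie close together, while at 72 h they shift all genes together, so that RNF43, ZNRF3 and TCF7 lie on both sides of 0 and SP5, LGR5, EPHB2, EPHB3, NKD1 and ASCL2 stay on 1 side.

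The rest of the pathway was described with 5 lists, of 105 genes in all, of which 83 were tested at 2 and 72 h. At 2 h 12 were called lower and 0 higher (with 4 at an unadjusted p under 0.05 and 0 by DESeq2), and at 72 h 39 were called higher and 39 lower. Over all genes tested, 0.518% were called higher and 8.42% lower at 2 h, and 47.0% and 41.9% at 72 h. With mitochondrially encoded genes setting the scale, 0 of these pathway genes were lower at 2 h. All genes called lower then went from 1220 to 87. At 10 h, 16 of 95 tested were called higher and 30 lower, where 20.4% and 24.4% of all genes were.

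Among 18 other Wnt targets, 14 were tested. At 2 h 4 were called lower, of which BAMBI, a decoy receptor for TGF-beta signals, fell most among those of sufficient level (log2 -0.76, from 1190 ± 256 to 701 ± 86.7 CPM, n = 2 each, adjusted p = 0.0153), with SOX9, a crypt transcription factor, at -0.76 (adjusted p = 0.0634). At 72 h 7 rose and 7 fell. MYC, the growth-promoting transcription factor, was 24.7-fold higher (log2 4.63, from 359 ± 30.7 to 8688 ± 482 CPM, n = 3 each) and SOX9 3.58-fold higher (log2 1.84). CCND1, which codes for cyclin D1, rose by a log2 value of 1.72 at 72 h and stood at 0.06, not called, at 2 h, where MYC stood at -0.71 (adjusted p = 0.197). The largest falls were those of TIAM1, an exchange factor for RAC1 (log2 -4.64), and NOTUM, a secreted enzyme that inactivates Wnt ligands (log2 -4.12, from 628 ± 122 to 35.3 ± 6.14 CPM). Targets outside the 10 genes thus also moved both ways, with NOTUM falling beside NKD1 while MYC rose beside SP5. All genes tested moved both ways too (47.0% called higher and 41.9% lower).

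In the nuclear complex of beta-catenin and its partners, 14 of 16 genes were tested, of which 5 were lower at 2 h and 6 higher and 5 lower at 72 h. Of all genes tested, 8.42% were called lower at 2 h, and 47.0% higher and 41.9% lower at 72 h. CTNNB1 itself stood at 297 ± 17 CPM on DMSO and 284 ± 0.322 on toyocamycin at 2 h (n = 2 each; log2 -0.06, adjusted p = 0.885). At 72 h it was 4.37-fold lower, from 273 ± 16.2 to 61.1 ± 3.46 CPM (n = 3 each; log2 -2.13, adjusted p = 1.56e-10). The falls at 2 h were led by TLE4, a co-repressor (log2 -1.0, adjusted p = 0.0679), and EP300, a histone acetyltransferase (log2 -1.0, adjusted p = 5.74e-04). Both were higher at 72 h (3.05 and 1.53). Among called genes of sufficient level, the largest rises there were those of TLE4 and BCL9L, a beta-catenin co-activator (2.57). The largest falls were those of TLE2 (-2.71) and CTNNBIP1, an inhibitor of beta-catenin (-2.70). Below that level, TCF7L1, which codes for a TCF protein, rose from 0.0165 ± 0.0286 to 1.44 ± 0.294 CPM (log2 6.06).

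In the destruction complex and its upstream Dishevelled proteins, all 16 genes were tested. APC, the scaffold most often lost in colon cancer, was alone in being called at 2 h (log2 -1.17, from 50.0 ± 9.45 to 22.3 ± 0.149 CPM, n = 2 each, adjusted p = 4.94e-04). At 72 h 8 were higher and 7 lower, where 47.0% and 41.9% of all genes tested were. The largest rises were those of APC2 (5.53) and CSNK1D, a casein kinase gene (2.69), and the largest falls those of DVL2 (-2.86) and DVL3 (-2.54), both Dishevelled genes.

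Of 45 receptor and ligand genes, 30 were tested, of which 2 were lower at 2 h (FZD4, a Frizzled receptor, at -0.91, and WNT9A at -0.89) and 12 were higher and 17 lower at 72 h. RSPO2, which codes for an R-spondin, a ligand of LGR5, was listed at 0 in the 3 DMSO libraries of 72 h and at 30.7 ± 2.21 CPM on toyocamycin (n = 3). FZD8 rose at 72 h from 1.17 ± 0.566 to 73.9 ± 15.5 CPM (log2 6.02), and WNT11 (-4.21) and KREMEN1, a receptor for Dickkopf inhibitors (-3.37), fell most. Of 10 further intestinal stem cell genes, 9 were tested. At 2 h 0 were called in either direction (0 at an unadjusted p under 0.05 and 0 by DESeq2). At 72 h 6 rose and 3 fell. MSI1, an RNA-binding protein, went from 0.0143 ± 0.0248 to 23.0 ± 3.66 CPM and BMI1, a Polycomb protein, from 32.0 ± 4.55 to 1199 ± 111 CPM (log2 5.26), whereas PROM1 (-4.37) and PTK7 (-2.59), both surface proteins, fell. Like LGR5 and ASCL2, these genes moved in both directions at 72 h, as did all genes tested (47.0% called higher and 41.9% lower).

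**Figure D4:**
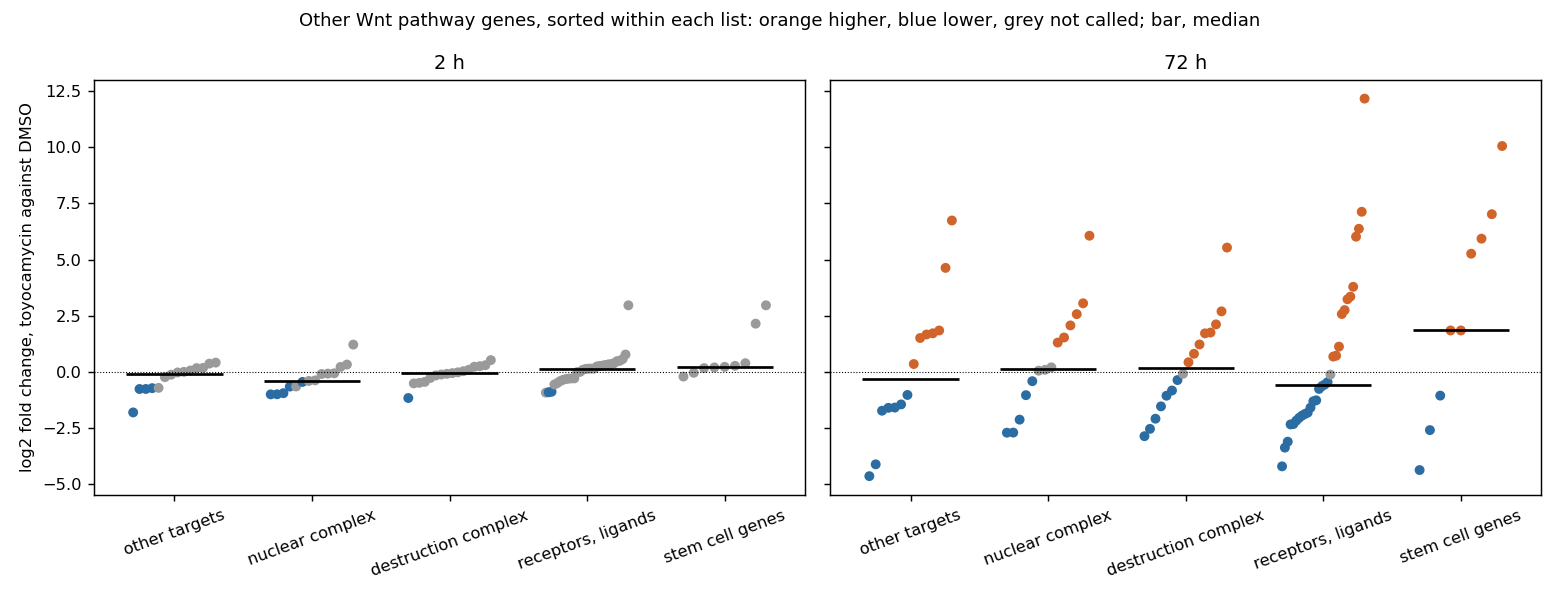
Log2 fold change of toyocamycin against DMSO (vertical axis) of the tested genes of 5 other Wnt pathway lists at 2 h and 72 h, sorted within each list, with genes called higher in orange, lower in blue and not called in grey, and a bar at each list's median. At 2 h 12 genes are called, all lower, and at 72 h 39 are called in each direction. The topmost point at 72 h is RSPO2, whose fitted value depends on the prior count because its DMSO libraries were at 0.

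Over the 17 libraries and 10751 genes with an average log2 CPM of at least 1, the genes whose log2 CPM was most like that of AXIN2 were UBAP1 (Pearson r 0.93), CDK13 (0.93) and KLHL9 (0.93). The nearest within the list were SP5 (0.87) and RNF43 (0.84), and the most unlike pair of the list was EPHB2 and SP5 (-0.84). These are descriptions over libraries that share treatment and time.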

How the data were processed

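RNA-seq read counts per gene were deposited by the authors for 17 libraries (8 DMSO, 9 toyocamycin), made with STAR 2.7.5a on GRCh38 per the labels and the study's methods, with 8735465 to 22121364 counts a library. The counts were used as deposited. A deposited table of the authors' own comparisons (fold changes and p-values) was not used, nor was 1 column, named as a DMSO library at 10 h, that matches no sample here. Gene symbols were matched for 19080 of 19141 genes.

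Counts were scaled with TMM and fitted in R 4.3.3 with edgeR 4.0.16 (limma 3.58.1; quasi-likelihood F test, legacy form, genes kept by filterByExpr), with p-values adjusted after Benjamini and Hochberg over all genes tested and called under 0.1. The 14 libraries of 2, 24, 48 and 72 h were fitted together for 2 and 72 h, the difference of their effects and the DMSO drift. All 17 libraries were fitted for 10 h. At 24 and 48 h, with 1 library an arm, log2 fold changes past 1 were counted without a test. Levels are CPM with TMM factors of all 17 libraries, and correlations used log2 CPM with a prior count of 2. Replicate libraries differed beyond sampling noise (chi-square per gene 5.73 to 67.1).

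Replicate numbers at 2 h coincide with the batch named in the labels, whose nature is not stated, and same-numbered libraries deviated together (r = 0.307), so the block on the number was read beside the 2 h results. At 72 h the number is shared only.

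The 10 genes, the other lists and the tests were chosen with earlier results of these data known. Of the other lists, the 2 largest rises and 2 largest falls among called genes with an average log2 CPM of at least 1 were named at 2 and 72 h, with MYC, CCND1 and CTNNB1 always, and the 3 genes most like AXIN2. Alternatives were other scalings, no filter, DESeq2 1.42.0, the newer quasi-likelihood form, a threshold of 0.05, batch or replicate block as a term, all 17 libraries, and leaving out each library. The fit was tested on simulated data. Promoters came from RefSeq (GRCh38.p14). Python 3.11.15, pandas 2.3.3, numpy 2.4.6 and matplotlib 3.10.9 made tables and plots.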

Additional observations from a re-analysis of the deposited data

Results flagged for a closer look

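For 8 of the 10 genes the effect of toyocamycin at 72 h differed from that at 2 h, by a test of the difference itself within edgeR's quasi-likelihood fit of 14 libraries (Benjamini-Hochberg adjusted p). Among all genes tested, 38.0% differed upward and 38.1% downward, so 8 of 10 lies near the background. On the log2 scale, the effect at 72 h minus that at 2 h was 2.00 for AXIN2 (adjusted p = 1.39e-07), which fell at 2 h and rose at 72 h, and 1.10 for ZNRF3 (adjusted p = 1.77e-04). The ZNRF3 call at 2 h was lost without any of 3 of the 4 libraries, and its value at 72 h was -0.023 with library size alone and -0.52 with mitochondrially encoded genes. RNF43 also differed by 1.10 (adjusted p = 5.91e-05). SP5 differed by 4.46 (adjusted p = 7.64e-08) and LGR5 by 2.62 (adjusted p = 6.87e-07), neither called at 2 h by the same fit. The differences of EPHB2 (-4.76, adjusted p = 3.45e-10), NKD1 (-2.33, adjusted p = 6.46e-06) and ASCL2 (-1.75, adjusted p = 0.00304) were downward. With scaling on mitochondrially encoded genes, those of AXIN2 (1.07), RNF43 (0.23) and ZNRF3 (0.11) were no longer called. The cause was not tested.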

How the results depend on the processing

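EPHB3 at 2, 10 and 72 h and SP5, LGR5, EPHB2, NKD1 and ASCL2 at 72 h kept direction and call under every alternative run. Scaling moved most of the rest. With library size alone, members higher were 1 (10 h), 2 (48 h) and 3 (72 h). The effect difference was lower for 5 members, and 46 other pathway genes were lower at 10 h. All genes higher were then 1872 (10 h), 4444 (48 h) and 5657 (72 h), from 3375, 5515 and 6804. All genes lower were 6618 in the effect difference and 5676 at 10 h, from 5523 and 4033. With mitochondrially encoded genes, 1 member was lower at 2 h, members called higher were 0 (10 h), 1 (24 h), 1 (48 h) and 2 (72 h), 7 were lower at 24 h, 2 had a higher effect difference, and the DMSO drift had 1 higher and 0 lower. In that scaling the other pathway genes were 0 lower (2 h), 6 higher (10 h) and 23 higher (72 h). Of all genes, 87 were then lower at 2 h, and 503 (10 h), 1302 (24 h), 2910 (48 h) and 4204 (72 h) were higher. At 24 h 10305 of all genes were lower. A higher effect difference was left for 2810 of all genes, from 5506, and the DMSO drift had 563 higher and 36 lower. DESeq2 size factors left 2 members lower at 24 h (3615 of all genes, from 4033). All 17 libraries in the fit left 1 lower at 2 h (812 of all genes, from 1220).

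Direction turned for EPHB2 at 2 h (-0.054 with library size, -0.10 with mitochondrial genes) and 10 h (-0.41 and -1.12), SP5 at 10 h (-0.34 and -0.79, and -0.53 with batch as a term), ZNRF3 at 72 h (-0.023 and -0.52), and TCF7 at 2 h (-0.11, mitochondrial). The mitochondrial scaling also turned RNF43 at 10 h (-0.37), 24 h (-0.69) and 72 h (-0.27), and at 48 h AXIN2 (-0.24), RNF43 (-0.49) and ZNRF3 (-0.062). In the DMSO drift it turned AXIN2 (0.56), EPHB2 (0.53) and SP5 (0.10), and library size turned RNF43 (-0.030). DESeq2's size factors and Wald test gave 0.18 for AXIN2 and 0.13 for TCF7 at 10 h, and 0.027 for TCF7 at 72 h. The cause was not tested.

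Leaving out 1 library gave 5 to 5 members higher and 4 to 5 lower at 72 h. All genes were then 6476 to 6763 higher and 5914 to 5963 lower. Leaving out a library of 2 or 10 h leaves 1 in its group, so calls are not counted there. Values ranged at 2 h from -0.041 to 0.35 for LGR5, -0.20 to 0.85 for ASCL2, -0.11 to 0.12 for EPHB2 and -0.040 to 0.19 for TCF7. At 10 h they ranged from -0.79 to 0.50 for AXIN2, -0.033 to 0.11 for EPHB2, -0.35 to 0.16 for TCF7 and -1.09 to 0.84 for SP5. The 10 h ranges of genes called there were 0.54 to 0.90 for RNF43 and -0.80 to -0.74 for LGR5. They were -1.95 to -1.19 for ASCL2, -3.06 to -2.14 for EPHB3 and -0.93 to -0.77 for NKD1.

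Over all genes, 2 h gave 75 higher and 1220 lower, 12 and 87 with mitochondrial genes, 29 and 812 with all 17 libraries, 158 higher without DMSO 2 h replicate 1, and 160 and 1538 with the replicate block, which pairs the 2 h libraries by batch and raised the members lower from 3 to 4 by adding SP5 (-0.64). At 72 h the pairing by number (r = -0.105, 0.0427 and -0.0876) is by number alone, replicate 1 of toyocamycin correlated best with replicate 3 of DMSO (0.159), and the block gave 6697 higher and 5972 lower and changed no member's call. At 10 h batch as a term gave 6239 higher, beside 3375 without it. Depth limits ASCL2 at 10 h and EPHB2, EPHB3 and NKD1 at 72 h, where toyocamycin libraries held as few as 20, 28, 27 and 23 counts.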
